A study of Mus musculus with 4 samples.

Results

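The genes of the unfolded protein response and the amino acid response were followed in mouse gonocytes, the germ cells of the newborn testis, with and without retinoic acid (RA). The 32 genes were taken from a list chosen by function, and every probe set that the array annotation gives to 1 of them alone was read. This gave 85 of the 45037 probe sets, and 32 of the 18193 genes named on the array. They fall into 16 ER chaperones and degradation factors, 7 ER stress sensors with their effectors, and 9 genes of the amino acid response.

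The endoplasmic reticulum (ER) folds secreted and membrane proteins, and the unfolded protein response is its alarm. In this response 3 ER sensors, encoded by Atf6, Ern1 and Eif2ak3, detect unfolded protein and raise chaperones, export for degradation and a pause in translation. Ern1 splices the Xbp1 message, and Eif2ak3 phosphorylates a translation initiation factor, which favours translation of Atf4. Lack of amino acids reaches Atf4 through a related kinase, so ATF4 targets such as Asns, Trib3 and Chac1 respond to both signals. Much of this regulation is on splicing, translation and protein, which an expression array of this kind does not measure.

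All samples were THY1-selected gonocytes from mice 2 days after birth, obtained by magnetic sorting and kept for 8 h without serum, growth factors or feeder cells. The controls received ethanol, the vehicle, and the treated samples 100 nM RA, the vitamin A derivative that drives germ cell differentiation. Each group held 2 samples, numbered 1 and 2 in the titles, and each sample was measured on 1 Affymetrix array. The labels do not say what the number stands for and do not name separate animals or cultures. The p-values below therefore rest on the spread among these arrays, part or all of which may be technical.

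The 4 arrays had the same trimmed mean signal, 125, and median signals between 26.6 and 29.5. All 11 germ cell markers read here were above the signal filter, with summed signals of 9164 and 8957 on the vehicle arrays against 8392 and 8709 on the RA arrays. They did not all behave alike: Ddx4 lay between 1121 and 1305 on the 4 arrays, while Zbtb16 gave 701 and 699 against 368 and 174, and Ret 514 and 562 against 254 and 277. Thy1, the marker used for sorting, gave 330 and 265 on the vehicle and RA arrays numbered 1 and 168 and 141 on those numbered 2. Markers of other cells were present as well. In summed signal, 5 mast cell markers gave 2062 and 1509 on the vehicle and RA arrays numbered 1 and 4710 and 4646 on those numbered 2. The 5 macrophage markers gave 491 and 460 against 1078 and 906 in the same order. The 4 Leydig cell markers read gave 1374 and 1509 against 2495 and 1978, and the 6 stromal markers 7226 and 7766 against 9244 and 10580. All 20 of these genes were above the filter and none was at 0. By treatment, the 8 Sertoli cell markers, 7 of them above the filter, gave 1481 and 1706 with vehicle against 1881 and 1787 with RA, and the 5 endothelial markers 201 and 176 against 211 and 270. Kit, in the mast cell list, is also a germ cell gene. The ratio of 3' to 5' signal of the Actb control was 1.72 and 1.73 on the vehicle arrays against 2.08 and 2.32 on the RA arrays. For the Gapdh control it was 1.56 and 1.47 against 1.85 and 2.00.

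Motifs known from these pathways were searched in the 250 bases upstream of each annotated start in RefSeq (GRCm38.p6), on both strands, as a view of what the members share beyond their names. A window was given for 30 of the 32 genes, with Hyou1 and Atf6 unmatched. The ER stress response element, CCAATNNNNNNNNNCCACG, was found in 8 of these 30 genes and in 0.113% of all 32851 windows. All 8 are ER chaperones or degradation factors. These stretches are shown with 10 bases on either side, read 5′ to 3′ on the strand that carries the motif, with its fixed letters in capitals.
Hspa5, chr2:34772015-34772053, plus strand: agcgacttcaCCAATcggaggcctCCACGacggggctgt
Hsp90b1, chr10:86705523-86705561, plus strand: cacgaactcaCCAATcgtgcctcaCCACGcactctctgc
Hsp90b1, chr10:86705628-86705666, minus strand: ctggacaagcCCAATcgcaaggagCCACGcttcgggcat
Dnajc3, chr14:118937817-118937855, plus strand: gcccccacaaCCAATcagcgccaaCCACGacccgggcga
Calr, chr8:84847065-84847103, plus strand: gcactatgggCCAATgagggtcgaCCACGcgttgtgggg
Canx, chr11:50325790-50325828, minus strand: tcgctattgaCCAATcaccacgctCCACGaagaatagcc
Pdia6, chr12:17266481-17266519, plus strand: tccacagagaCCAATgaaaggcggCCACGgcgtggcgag
Creld2, chr15:88819510-88819548, minus strand: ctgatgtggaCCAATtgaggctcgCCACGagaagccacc
Syvn1, chr19:6046522-6046560, plus strand: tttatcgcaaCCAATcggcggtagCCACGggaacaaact

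The second form of that element, ATTGGNCCACG, was found in Herpud1 alone among the members and in 0.0304% of all windows. The core of the amino acid response element, TGATGNAA, was found in 5 members, Asns, Chac1, Vldlr, Slc7a11 and Herpud1, and in 3.45% of all windows. It is a short motif, and in these 5 genes none of its matches shared a base with a match of another motif. The stretches of the 4 amino acid response genes, and both of Herpud1, are shown in the same way.
Herpud1, second form, chr8:94386367-94386397, plus strand: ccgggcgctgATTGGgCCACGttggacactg
Herpud1, amino acid core, chr8:94386307-94386334, minus strand: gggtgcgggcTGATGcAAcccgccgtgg
Asns, chr6:7693215-7693242, minus strand: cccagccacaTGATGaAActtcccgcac
Chac1, chr2:119351039-119351066, minus strand: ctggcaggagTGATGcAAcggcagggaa
Vldlr, chr19:27216810-27216837, minus strand: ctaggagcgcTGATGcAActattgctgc
Slc7a11, chr3:50443643-50443670, plus strand: ggctgcatgaTGATGcAAattctccagg
Slc7a11, chr3:50443662-50443689, minus strand: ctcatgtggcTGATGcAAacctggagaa

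To show one such region whole, the 250 bases before the start of Hspa5 (chr2:34771840-34772089, plus strand) read as follows, with the fixed letters of the element in capitals. A match is a description of the letters and not a measured binding site.
Hspa5 upstream: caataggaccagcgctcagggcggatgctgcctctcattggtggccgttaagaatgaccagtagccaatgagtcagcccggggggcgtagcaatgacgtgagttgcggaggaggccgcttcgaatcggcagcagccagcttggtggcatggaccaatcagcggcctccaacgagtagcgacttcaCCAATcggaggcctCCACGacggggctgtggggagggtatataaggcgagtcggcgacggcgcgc

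The comparison of RA with vehicle asked whether 8 h of RA moved these stress genes. No member passed the test. The differences were small. On the brightest probe set of each gene they leaned upwards, with 25 of 32 members above 0 and 7 below. Their median log2 difference was 0.13. Over all 13011 genes tested 52.9% were above 0, and the median was 0.0147. Of the 75 member probe sets above the filter 46 lay above 0 and 29 below, with a median of 0.0752. The count of 25 members was 22 under quantile normalization, 26 with equal array medians and 20 to 23 with 1 array left out. The test was limma on log2(signal + 5), 1 probe set per gene, with Benjamini-Hochberg adjustment over all 27022 probe sets above the signal filter and a threshold of 0.05. It called 0 of the 32 members and 0% of all genes. At an unadjusted p under 0.05 there was 1 member, Herpud1, or 1 in 32, where the share over all genes was 2.71%. An exact two-sided permutation test of 2 arrays against 2 cannot give a p below 0.33. In bulk RNA such as this, fewer cells of a type and less RNA per cell cannot be told apart.

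The arrays overlapped for most members. On the brightest probe set of each gene, the RA arrays were both brighter than either vehicle array in 5 members. These were Sdf2l1, Herpud1, Edem1, Xbp1 and Trib3. Both RA arrays were dimmer in 1, Sel1l. Over all genes the shares were 14.1% and 12.6%. The signal of a member differed between its highest and its lowest array by 1.47-fold at the median, and by 2-fold or more in 3 members, Ddit3, Slc7a11 and Chac1. The 95% interval of the RA difference, not adjusted for the number of genes, lay within 2-fold in either direction for 27 of 32 members (84.4%), where the share over all genes was 78.7%. The 3' to 5' ratios of the control transcripts and the summed Sertoli and endothelial markers were also higher on both RA arrays than on either vehicle array, and the summed germ cell markers lower. Single markers did not all follow their sums. Sall4, a germ cell marker, gave 2268 and 2530 on the vehicle arrays against 2311 and 3776 on the RA arrays. Rhox5, a Sertoli marker, gave 174.5 and 129.6 against 141.8 and 100.4. The endothelial markers were dim, at 22.3 to 76.9, and the germ cell sum holds the low RA values of Zbtb16 and Ret given above. The part of these ratios and sums in the member values was not tested.

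**Figure D1:**
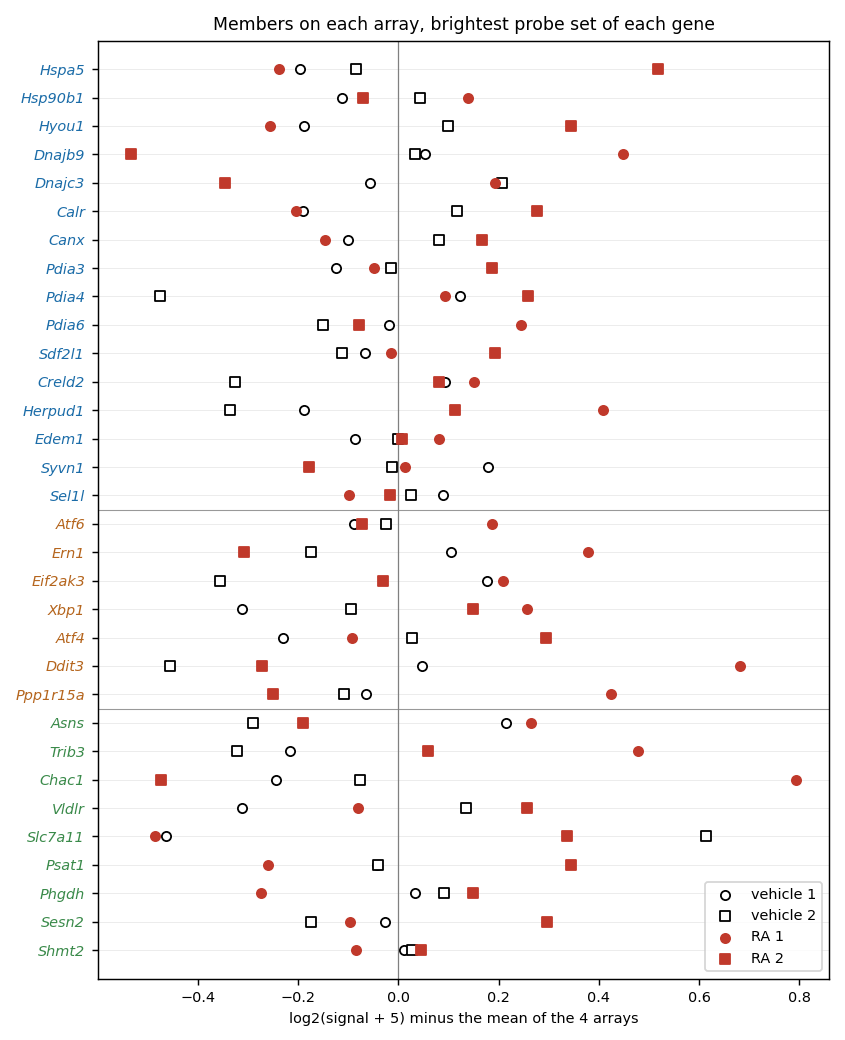
Signal of the 32 members on each of the 4 arrays, as log2(signal + 5) minus the mean of the 4 arrays, for the brightest probe set of each gene. Open symbols are vehicle, filled symbols RA, circles number 1 and squares number 2, and name colours mark the 3 groups of genes (ER chaperones and degradation at the top, sensors and effectors in the middle, amino acid response at the bottom). The RA array numbered 1 is the highest of the 4 for 15 members and the RA array numbered 2 for 13, where the shares over all genes were 31.55% and 26.85%. They are the lowest for 9 and 6 members, where the shares over all genes were 25.66% and 29.04%.

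Among the ER chaperones and degradation factors 12 of 16 were above 0 with RA, with a median log2 difference of 0.0889 and a range from −0.17 to 0.52. None passed the test. Herpud1, which helps to pass misfolded protein to the degradation machinery, gave 227 and 205 on the vehicle arrays against 346 and 281 on the RA arrays. Its groups did not overlap, and it stood 1.44-fold higher with RA (log2 difference 0.52 ± 0.21, SE, n = 2 per group). In limma its unadjusted p was 0.0368 and its adjusted p rounded to 1. The other probe set of Herpud1 gave 113 and 114 against 142 and 134, a log2 difference of 0.27. Hspa5, the main ER chaperone, which also holds the sensors inactive, gave 1411 and 1526 on the vehicle arrays against 1371 and 2318 on the RA arrays. Only the RA array numbered 2 was high, and without it the log2 difference of 0.28 ± 0.29 became −0.10. The second bright probe set of Hspa5 gave 1405 and 1444 against 1622 and 1655, where the groups did not overlap, with a log2 difference of 0.20. Pdia4, a disulphide isomerase, had 201 and 131 against 197 and 221, so that the vehicle array numbered 2 was the low one (0.35 ± 0.26, and 0.05 without that array). Creld2, a secreted ER stress protein, had 501 and 374 against 522 and 497 (0.23 ± 0.21, and 0.0228 without the vehicle array numbered 2). For both genes the RA arrays overlapped the vehicle arrays.

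The other chaperones and isomerases gave values close to 0. Hsp90b1, the ER form of HSP90, gave 1130 and 1258 on the vehicle arrays against 1346 and 1162 on the RA arrays. Hyou1, an exchange factor for Hspa5, had 178 and 218 against 169 and 259. The lectin chaperones were similar: Calr had 1672 and 2071 against 1655 and 2314, and Canx 1261 and 1430 against 1221 and 1518. On the brightest probe sets of Hyou1, Calr and Canx both arrays numbered 2 lay above both numbered 1, whatever the treatment. The other probe sets of Canx went the other way, with log2 differences of −0.25 and −0.32 for number 2 minus number 1. Pdia3, which works with these lectins, had 1203 and 1298 against 1268 and 1494. Pdia6, another disulphide isomerase, had 252 and 230 against 304 and 242. Sdf2l1, a partner of Hspa5, had 57.0 and 55.0 against 59.2 and 69.2, with groups that did not overlap but a log2 difference of only 0.18.

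On their brightest probe sets the cochaperones of Hspa5 were low on a single array. Dnajb9 gave 692 and 682 on the vehicle arrays against 911 and 459 on the RA arrays, so that the RA arrays held both its highest and its lowest value. Dnajc3, which also restrains the kinase of Eif2ak3, had 377 and 454 against 450 and 308. Its next brightest probe set had 297 and 256 against 388 and 312, a log2 difference of 0.33 with groups that did not overlap. The further ones gave −0.10, 0.14 and −0.37. Of the degradation genes, Edem1, which hands over glycoproteins, had 139 and 147 against 156 and 148. The ubiquitin ligase gene Syvn1 had 97.7 and 85.0 against 86.5 and 75.2. Its partner Sel1l had 662 and 633 against 582 and 616, the 1 member whose RA arrays both lay below vehicle on its brightest probe set. A dim probe set of Sel1l had 24.5 and 24.1 against 12.5 and 13.3, a log2 difference of −0.72 ± 0.29, with an unadjusted p of 0.0394 and an adjusted p that rounded to 1 in limma. This probe set was picked out after its values were seen.

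The 7 sensors and effectors were all above 0 with RA, from 0.07 to 0.41 on the log2 scale, with a median of 0.18. None passed the test, and on their brightest probe sets the arrays of 6 of the 7 overlapped. The RA array numbered 1 was the highest of the 4 arrays for 6 of the 7, where the share over all genes was 31.6%. Xbp1, the transcription factor spliced by Ern1, was the gene whose groups did not overlap there, with signals of 261 and 304 against 389 and 361. It stood 1.32-fold higher (log2 difference 0.41 ± 0.20), with an unadjusted p of 0.0733 and an adjusted p that rounded to 1 in limma. Its other 3 probe sets gave 0.25, 0.26 and 0.32, so that all 4 lay on the same side. The array does not separate the spliced from the unspliced form here.

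Ddit3, the factor CHOP, which promotes death under lasting stress, gave 252 and 176 on the vehicle arrays against 394 and 201 on the RA arrays. The groups overlapped, and the log2 difference of 0.41 ± 0.33 became −0.068 without the RA array numbered 1. The other probe set of Ddit3 gave −0.08. Atf4 had 1136 and 1358 against 1251 and 1637 (0.20 ± 0.24, and 0.00981 without the RA array numbered 2), and its second probe set gave −0.16. Eif2ak3, the kinase PERK, had 209 and 143 against 214 and 180 (0.18 ± 0.25, and −0.087 without the vehicle array numbered 2). The remaining sensors showed no more than this. Ern1, the splicing enzyme IRE1, had 167 and 136 against 203 and 124. Atf6, which is cut in the Golgi to release a transcription factor, had 188 and 197 against 228 and 190. Ppp1r15a, a phosphatase subunit that ends the translation pause, had 237 and 230 against 335 and 208. On the brightest probe set of each of these 3 genes the RA array numbered 1 was the highest. The RA array numbered 2 lay among or below the vehicle arrays there. A second probe set of Atf6 gave 182 and 212 against 179 and 216. Its dimmest gave 60.2 and 50.5 against 69.65 and 75.3, a log2 difference of 0.36 with groups that did not overlap.

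In the amino acid response 6 of 9 genes were above 0 with RA, with a median log2 difference of 0.0829 and a range from −0.15 to 0.54. None passed the test. Trib3, a pseudokinase induced by ATF4 and CHOP, gave 39.6 and 36.4 on the vehicle arrays against 67.1 and 48.9 on the RA arrays. It stood 1.45-fold higher with groups that did not overlap (log2 difference 0.54 ± 0.30, and 0.33 without the RA array numbered 1), with an unadjusted p of 0.108 and an adjusted p that rounded to 1 in limma. Its other probe set had 31.4 and 31.9 against 51.9 and 27.1, and there the groups overlapped. Chac1, which degrades glutathione, had 38.1 and 43.4 against 83.5 and 31.8, the widest spread of any member. Its log2 difference of 0.32 ± 0.42 rested on the RA array numbered 1 and was −0.31 without it. Asns, asparagine synthetase, had 871 and 613 against 903 and 657. The numbers separated its arrays and the treatments did not (0.08 ± 0.26, −0.18 without the vehicle array numbered 2 and −0.15 without the RA array numbered 1).

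On their brightest probe sets the remaining amino acid genes also overlapped between treatments. Vldlr, a lipoprotein receptor that ATF4 can induce, had signals of 242 and 332 against 285 and 362 (log2 difference 0.18 ± 0.23, and −0.047 without the vehicle array numbered 1). Sesn2, which relays leucine shortage to the growth kinase mTORC1, had 66.5 and 59.5 against 63.1 and 84.5 (0.20 ± 0.28, and 0.00365 without the RA array numbered 2). The cystine transporter gene Slc7a11 had 38.6 and 87.1 against 38.0 and 70.9. On this probe set the numbers separated its arrays and the treatments did not. Its other probe set had 42.0 and 81.1 against 47.2 and 29.8, where neither separated them. There the log2 difference was −0.58 ± 0.38 for RA and 0.15 ± 0.38 between the numbers. Of the enzymes that make serine and pass its carbon on, Phgdh had 836 and 871 against 675 and 907. Psat1 had 1507 and 1509 against 1295 and 1971. Shmt2 had 227 and 230 against 212 and 233. On the brightest probe set of all 3 enzymes the RA array numbered 1 was the lowest and the RA array numbered 2 the highest of the 4. On the other probe sets of Phgdh the RA array numbered 2 was the lowest. The treatments did not overlap on any of these, and RA was the lower, with log2 differences of −0.25, −0.23 and −0.27.

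Within each number the RA difference could be read from 1 array against 1, with no replicate. Between the arrays numbered 1 the median of the members was 0.067, and between those numbered 2 it was 0.11, against 0.00446 and 0.0246 over all genes. Both differences were above 0 in 13 members and below 0 in 3, Syvn1, Sel1l and Slc7a11, and they had opposite signs in the other 16. Over all genes the shares were 28.4%, 24.9% and 46.6%. Herpud1 (0.60 and 0.45), Trib3 (0.69 and 0.38), Xbp1 (0.57 and 0.24) and Ddit3 (0.64 and 0.18) were the members above 0 in both numbers with the highest values between the arrays numbered 1. These values are those of the brightest probe sets. The other probe sets of Trib3 (0.64 and −0.20) and Ddit3 (0.22 and −0.39) had opposite signs in the numbers. A further probe set of Xbp1 gave 0.64 and −0.0062, and the other of Herpud1 gave 0.31 and 0.22. On their brightest probe sets Chac1 (1.04 and −0.40), Dnajb9 (0.39 and −0.57), Dnajc3 (0.25 and −0.55) and Ppp1r15a (0.49 and −0.14) had opposite signs in the numbers. The next brightest probe set of Dnajc3 gave 0.38 and 0.28. Pdia4 (−0.03 and 0.73) and Hspa5 (−0.04 and 0.60) stood above 0 between the arrays numbered 2 alone. The second bright probe set of Hspa5 gave 0.21 and 0.20, above 0 in both numbers. The genes given here with values were picked out after these were seen.

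**Figure D2:**
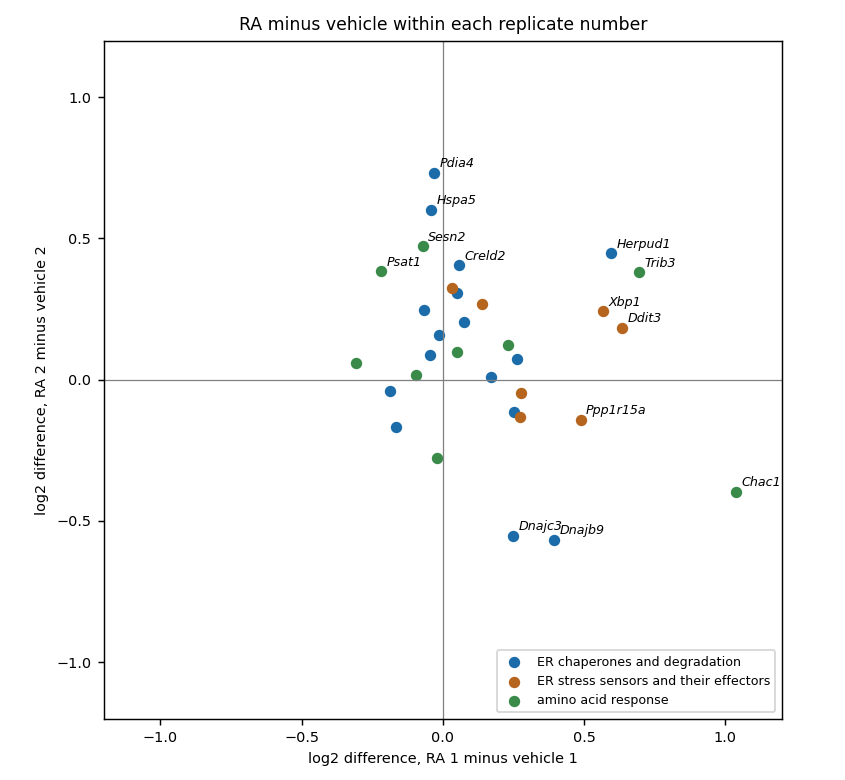
Log2 difference of RA minus vehicle for the 32 members between the arrays numbered 1 (horizontal axis) and between those numbered 2 (vertical axis). Each gene is 1 point, its brightest probe set, coloured by group. The other probe sets of Trib3 and Ddit3, not drawn, have opposite signs in the numbers. Herpud1, Trib3, Xbp1 and Ddit3 lie in the upper right, where both differences are above 0, while Chac1 lies at 1.04 and −0.40, and 16 of 32 members have opposite signs.

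The comparison of arrays numbered 2 with arrays numbered 1, both treatments together, asked how far these genes vary between the samples apart from RA. Across all genes 95 passed the test here and 0 for RA, and no member passed on its brightest probe set. Neither fit held a term for the other factor. With that term 3007 of the 27022 probe sets passed for the numbers and 543 for RA, against 157 and 0 without it. Of the members 2, Ddit3 and Slc7a11, then passed for the numbers and 0 for RA. The labels do not say whether the numbers pair the samples. Members split evenly, 16 above 0 and 16 below, with a median log2 difference of −0.0118, against −0.0562 over all genes. In the limma fit without that term 0 of the 32 members passed, where 0.73% of all genes did. At an unadjusted p under 0.05 there were 7 of the 32 members, where the share over all genes was 18.8%. Of these 3 were higher on the arrays numbered 2 and 4 lower, where the shares over all genes were 8% and 10.8%. The arrays of the numbers did not overlap in 20 members, 11 higher and 9 lower, where the shares over all genes were 21.4% higher and 30.5% lower. The summed signals of the mast cell, macrophage, Leydig and stromal markers given above were also higher on both arrays numbered 2 than on either numbered 1. Mcpt1, Star, Hsd3b1, Myh11 and Pdgfra did not follow their sums in this, while every other marker of these lists did. Myh11, a stromal marker, gave 174.6 and 215.6 on the vehicle and RA arrays numbered 1 against 150.3 and 150.3 on those numbered 2. Star, a Leydig marker, gave 334.8 and 466.8 against 520.6 and 443. The part of these sums in the member values was not tested.

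**Figure D3:**
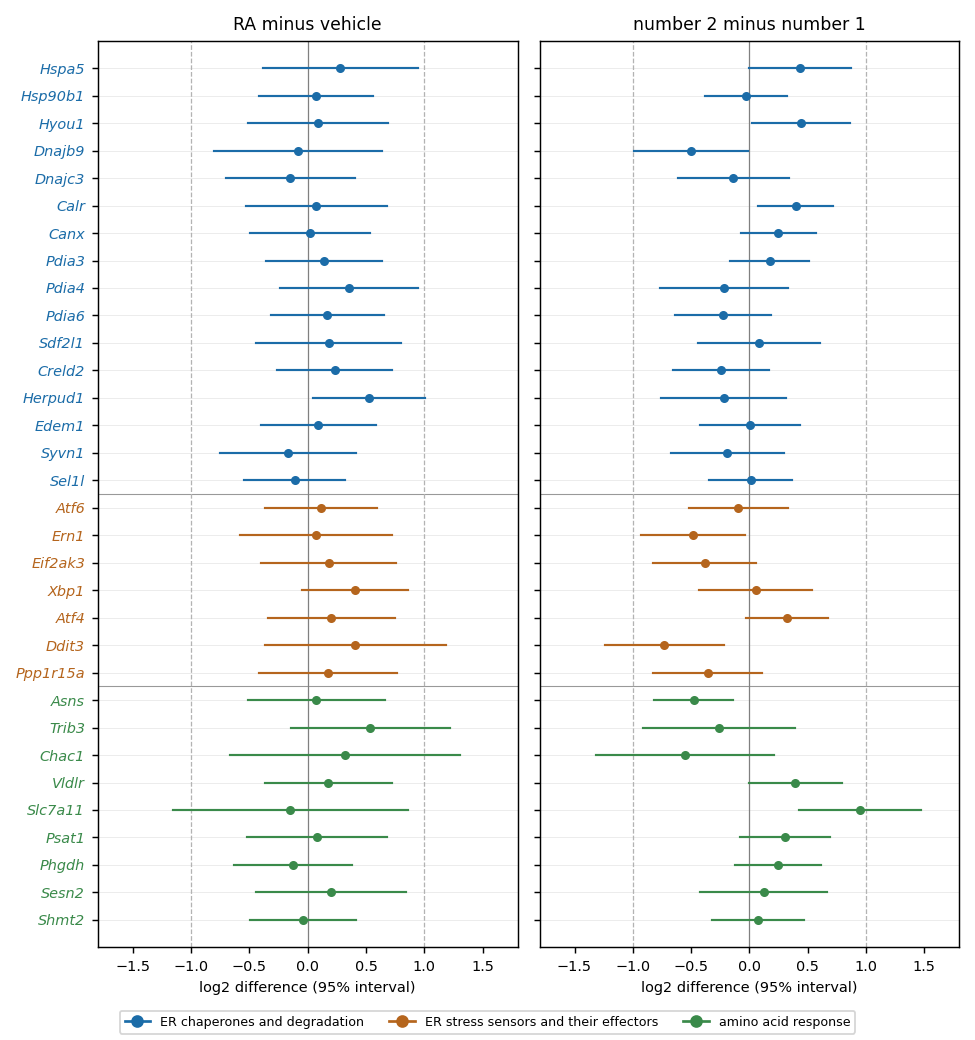
Log2 difference of the 32 members, brightest probe set, for RA minus vehicle (left) and number 2 minus number 1 (right), with the 95% interval from limma, not adjusted for the number of genes. Dashed lines mark a 2-fold difference and colours the 3 groups. For RA 27 intervals lie within the dashed lines, and for the numbers 29, with Ddit3 lowest and Slc7a11 highest on the right.

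Both arrays numbered 2 were brighter than either numbered 1 for Calr, Hyou1 and Hspa5, by an amount that for Calr and Hspa5 depended on the scaling. Calr, whose signals were given above, had a log2 difference of 0.39 ± 0.14 (unadjusted p = 0.0211, adjusted p = 0.188 in limma). Its 3 probe sets gave 0.39, 0.41 and 0.46. Hyou1 stood at 0.44 ± 0.19 and Hspa5 at 0.43 ± 0.20, while the second bright probe set of Hspa5 gave 0.03. Under quantile normalization Calr stood at 0.035, Hspa5 at 0.14 and Hyou1 at 0.54, and under cyclic loess at 0.19, 0.25 and 0.55. Dnajb9 lay the other way at −0.50 ± 0.22, with a low signal on the RA array numbered 2. Without the vehicle array numbered 2 Hspa5 (0.73), Calr (0.47) and Dnajb9 (−0.78) passed the threshold in limma, with adjusted p of 0.00258, 0.0178 and 0.0402. Number 2 is then 1 RA array, assumed to vary like those numbered 1, while number 1 holds both treatments. Without the RA array numbered 2 Hspa5 stood at 0.13, Calr at 0.31 and Dnajb9 at −0.22, with adjusted p of 0.541, 0.122 and 0.562 in limma. Over the 16 genes of this group 8 lay above 0 and 8 below.

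Hyou1 held the 1 of 75 member probe sets above the filter that passed, where 0.581% of all probe sets did. This probe set, which is not its brightest, had signals of 28.9 and 19.0 on the vehicle and RA arrays numbered 1. On the arrays numbered 2 they were 123 and 121, so that Hyou1 rose 4.45-fold by this probe set (log2 difference 2.15 ± 0.25, adjusted p = 0.0119 in limma). The brightest probe set of Hyou1 gave 178 and 169 against 218 and 259, only 1.36-fold. The third probe set, below the filter, had 8.90, 13.8, 9.24 and 6.04 on the vehicle arrays and then the RA arrays, numbers 1 and 2 in turn. The probe sets of this gene thus disagreed by 1.71 on the log2 scale, the widest disagreement among the members. With no signal filter the adjusted p was 0.0764.

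Among the sensors and effectors 5 of 7 genes were lower on the arrays numbered 2, with a median of −0.36, and none passed. Ddit3 had the lowest value, with 252 and 394 on the vehicle and RA arrays numbered 1 against 176 and 201 on those numbered 2. It stood 1.66-fold lower (log2 difference −0.73 ± 0.23, unadjusted p = 0.00993, adjusted p = 0.141 in limma). Its other probe set gave −0.32. Without the vehicle array numbered 1 Ddit3 passed at −1.05 (limma, adjusted p = 0.0134), with number 1 then a single RA array, and without the RA array numbered 1 it stood at −0.41 (adjusted p = 0.781). Ern1 stood at −0.48 ± 0.20 (−0.27 averaged over its probe sets), Eif2ak3 at −0.38 ± 0.20 (−0.22 without the vehicle array numbered 2) and Atf4 at 0.32 ± 0.16 (0.0973 under quantile normalization). Xbp1 stood at 0.06 ± 0.22, and its direction turned without the vehicle array numbered 1 (−0.23) and without the RA array numbered 2 (−0.07).

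The amino acid response genes went both ways between the numbers. Slc7a11, which imports cystine for glutathione, had 38.6 and 38.0 on the vehicle and RA arrays numbered 1 against 87.1 and 70.9 on those numbered 2. It stood 1.93-fold higher (log2 difference 0.95 ± 0.23, unadjusted p = 0.00241, adjusted p = 0.0928 in limma), the smallest adjusted p of any member by its brightest probe set. Its other probe set gave 42.0 and 47.2 against 81.1 and 29.8, where the numbers overlapped, and the average over its probe sets was 0.55. Asns lay lower, with 871 and 903 against 613 and 657 (−0.48 ± 0.15, unadjusted p = 0.0107, adjusted p = 0.145 in limma), and its second probe set gave −0.37. Vldlr stood at 0.39 ± 0.18, and at 0.0865 averaged over its probe sets. Psat1 stood at 0.30 ± 0.17, and at 0.023 under quantile normalization. Psat1 passed at 0.50 without the vehicle array numbered 2 (limma, adjusted p = 0.0402), with number 2 then a single RA array, and stood at 0.11 without the RA array numbered 2 (adjusted p = 0.667).

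Most members had more than 1 probe set above the filter, which gives a second reading of the same RNA. For RA, 12 of the 25 such genes had all their probe sets on the same side of 0. In 8 genes, Hspa5, Calr, Pdia3, Herpud1, Edem1, Ern1, Xbp1 and Trib3, this side was higher with RA. In 4 genes, Syvn1, Sel1l, Slc7a11 and Phgdh, it was lower. The other 13 genes had probe sets on both sides. Dnajc3, with 5 probe sets, ran from −0.37 to 0.33, and Vldlr, with 6, from −0.04 to 0.56. For the numbers, 16 of the 25 genes had all probe sets on the same side. Of the 75 member probe sets above the filter, 2 had an unadjusted p under 0.05 for RA, where the share over all probe sets was 2.75%. For the numbers there were 13, where the share was 18.3%. Another 2 probe sets that name Phgdh together with a pseudogene were not used.

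**Figure D4:**
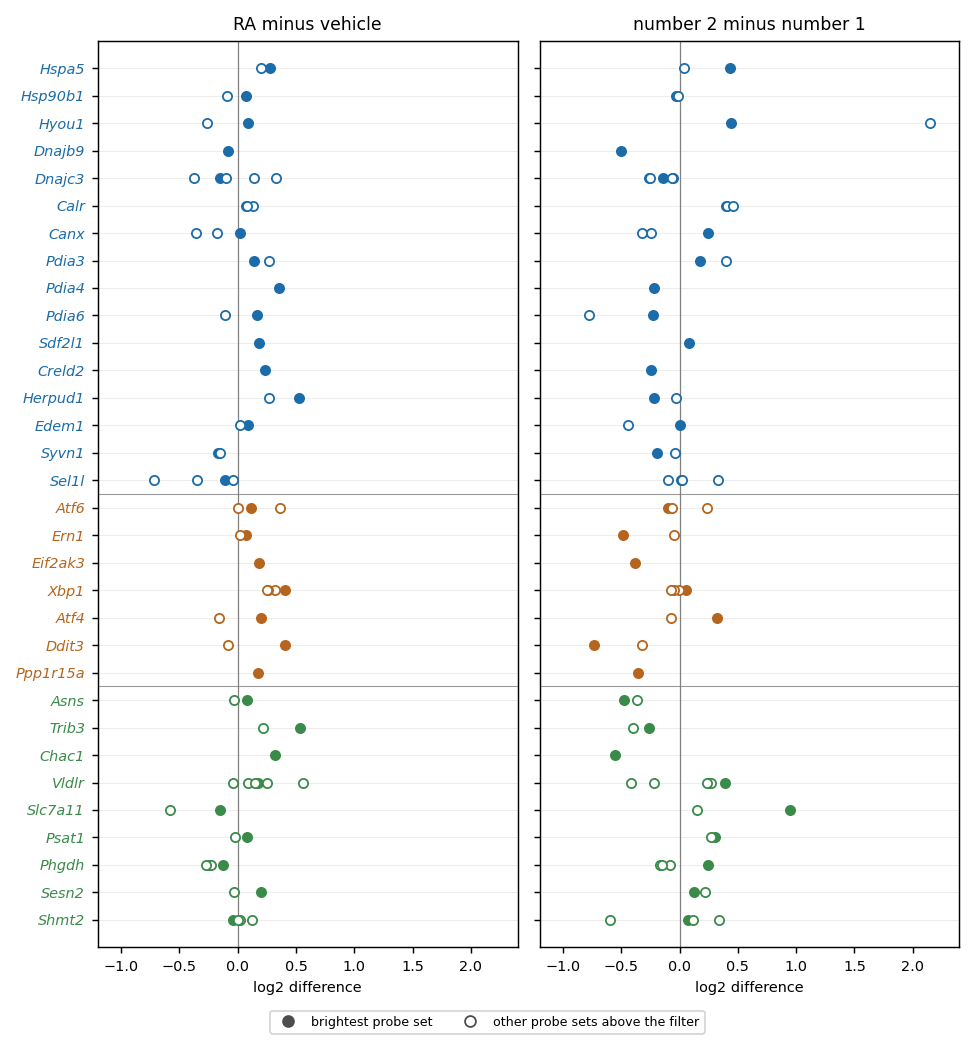
Log2 difference of each of the 75 member probe sets above the signal filter, for RA minus vehicle (left) and number 2 minus number 1 (right), 1 row per gene. Filled circles are the brightest probe set of a gene and open circles its others. The 4 probe sets of Xbp1 lie together at 0.25 to 0.41 on the left, and the second probe set of Hyou1 stands apart at 2.15 on the right.

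The values of the members were also read by the promoter element they hold, with no test. The 8 genes with the ER stress response element shown above had a median RA difference of 0.0707, from −0.17 to 0.28, with 6 above 0. Between the numbers their median was −0.0833, with 3 above 0. The 5 genes with the amino acid core had medians of 0.18 for RA and −0.22 between the numbers. Herpud1, which holds the second form and the amino acid core, stood at 0.52 for RA and at −0.22 between the numbers.

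A wider list of 53 other genes of these pathways, with 52 read on the array and all 52 above the filter, was read in the same way. For RA 0 of the 52 passed in limma, 35 lay above 0 and 17 below, where 52.9% of all genes lay above 0, and the median was 0.0966. An unadjusted p under 0.05 was reached by 4 of them, or 7.69%, where the share over all genes was 2.71%. Cebpb, a transcription factor that partners ATF4, gave 155 and 160 on the vehicle arrays against 293 and 257 on the RA arrays (1.72-fold higher, log2 difference 0.78 ± 0.20). Its arrays did not overlap, with an unadjusted p of 0.00511 and an adjusted p that rounded to 1 in limma. Aars, the alanyl-tRNA synthetase, had 359 and 286 against 448 and 573 (0.65 ± 0.22). Eif2ak2, the kinase that senses double-stranded RNA, lay lower with 136 and 216 against 81.2 and 118 (−0.78 ± 0.30, and −0.46 without the vehicle array numbered 2). The fourth was Manf, a secreted ER stress factor, at 0.45 ± 0.19, named after its values were seen. With the number as an added term Cebpb, Eif2ak2 and Aars passed for RA, with adjusted p of 0.00594, 0.0155 and 0.0254 in limma. The labels do not say whether the numbers pair the samples.

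Between the numbers 0 of the 52 passed in limma, with 27 above 0 and 25 below. An unadjusted p under 0.05 was reached by 6, or 11.5%, where the share over all genes was 18.8%. Nupr1, a small stress-induced nuclear protein, had 442 and 445 on the vehicle and RA arrays numbered 1 against 609 and 790 on those numbered 2 (log2 difference 0.64 ± 0.18, adjusted p = 0.113 in limma). Cth, which makes cysteine, had 123 and 156 against 77.1 and 83.2 (−0.75 ± 0.22, adjusted p = 0.122 in limma). Ero1b, an ER oxidase, had 149 and 154 against 88.7 and 103 (−0.64 ± 0.20, adjusted p = 0.144 in limma). Nupr1 passed without the vehicle array numbered 2, at 0.83 (limma, adjusted p = 0.0192), with number 2 then a single RA array, and stood at 0.45 without the RA array numbered 2 (adjusted p = 0.197).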

How the data were processed

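RNA (75 ng per sample, per the labels' protocols) was amplified and hybridised to Affymetrix Mouse Genome arrays, and images were quantified with GCOS 1.2, per the labels. The deposited values are linear intensities, 1 for each probe set on each array. The step that summarised probes and scaled arrays was not given in the sources read. The equal trimmed means of the arrays are what a global scaling to 1 target gives, so no further normalization was applied.

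After 64 control probe sets were left out, 45037 remained. Values were taken as log2(intensity + 5), the offset being the rounded 20th percentile of the table. Fold changes are those of intensity plus 5, which makes them too small for dim genes. Probe sets with a mean at or above the 40th percentile were kept. RA was compared with vehicle, and number 2 with number 1, in limma 3.58.1 (R 4.3.3; lmFit, eBayes with intensity trend), two-sided, over 4 arrays with 2 residual degrees of freedom and no further term. The fit was tested on simulated arrays with independent noise and changes seeded for a single comparison at a time. This does not test the fit where the other factor also shifts the arrays.

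Gene names come from the platform annotation. Of 34945 probe sets that name 1 gene, 34741 took their current symbol from GRCm38.p6 by Entrez ID. A gene was read from the brightest probe set that names it alone. Given in full were Hspa5, Xbp1, Atf4, Ddit3 and Asns, then in each group and comparison the 4 members with the smallest p, and the 3 of the wider list. Members and lists were chosen with earlier results of these data known. The number of arrays limits the precision. Alternatives covered normalization, pseudocount, filter, variance model, the other factor as a term, each array left out, and a gene read as the average over its probe sets. Plots were made in Python 3.11.15 (matplotlib 3.10.9).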

Additional observations from a re-analysis of the deposited data

How the results depend on the processing

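No member was called for RA under any alternative run. The count of all probe sets called for RA, 0 in the reported fit with 743 at an unadjusted p under 0.05, lay between 0 and 152 with 1 array left out, and was 543 with the replicate number as a block. The count for the numbers, 157, was 344 with equal array medians (192 higher and 152 lower, against 109 and 48), 91 with the stricter filter, 40 without the intensity trend, 0 with no filter (7116 at an unadjusted p under 0.05 in limma), 3007 with treatment as a block term beside the number, and 172 to 1463 with 1 array left out. Whether the numbers pair the samples is not given in the labels. Over 27022 probe sets the deviations of same-numbered arrays from their group means had a correlation of 0.526. Arrays of the same number thus tended to deviate in the same direction. The correlation of signals was 0.980 between vehicle 1 and RA 1 and 0.974 between vehicle 2 and RA 2. It was 0.971 between the vehicle arrays and 0.955 between the RA arrays. In the block fit Cebpb (limma, adjusted p = 0.00594), Eif2ak2 (0.0155) and Aars (0.0254) passed for RA. For the numbers Ddit3 (0.00308), Slc7a11 (0.00307), Nupr1 (0.00941), Cth (0.0095) and Ero1b (0.03) passed there, and the block changed no other call among the genes given in full. The member median for RA, 0.13, was 0.20 with equal array medians, 0.0699 with genes averaged over their probe sets, and 0.083 to 0.14 with 1 array left out. The member median for the numbers, −0.0118, was −0.0735 with that average and −0.131 to 0.0803 with 1 array left out. With that average Xbp1 turned to −0.018 and Hyou1 passed at 1.30 (limma, adjusted p = 0.0216) for the numbers. With 1 array left out the RA difference ran from −0.10 to 0.66 for Hspa5, from −0.087 to 0.44 for Eif2ak3, from −0.068 to 0.89 for Ddit3, from −0.18 to 0.33 for Asns, from −0.31 to 0.95 for Chac1 and from −0.047 to 0.40 for Vldlr. The difference between the numbers ran from −0.23 to 0.34 for Xbp1. The cause of these changes was not tested. Trib3 and Chac1 had signals of 31.8 to 83.5, close to the array medians of 26.6 to 29.5, and the added 5 makes their fold changes smaller.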
